A study of Mus musculus with 2 samples.

Results

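Genes that are classically used to mark oligodendrocytes and astrocytes were followed, one by one, in RNA from sorted microglia. The 9 genes were given by name, with earlier results of these data known, and were found in both count tables through a table that pairs Ensembl identifiers with symbols. Of the 53801 genes listed, 4 were the oligodendrocyte genes Mbp, Mog, Mobp and Cnp, and 5 were the astrocyte genes Slc1a2, Slc1a3, Gfap, Clu and Aqp4. The only group analysed here was sham microglia, with 2 libraries, each made from the left hemisphere of 1 mouse. The mice were male, 8 to 10 weeks old, on a C57BL/6 background as the series text gives them, whereas the study's methods name older mice of both sexes. Their genotype was Cx3cr1(CreER/wt), so that a tamoxifen-inducible Cre replaced one copy of Cx3cr1, the receptor gene whose promoter drives it in microglia and macrophages. They had received tamoxifen at 75 mg/kg/day for 4 days, the first dose 14 days before sham surgery, and cells were taken 3 days after it. The cells had been freed from the tissue enzymatically, passed through a Percoll gradient (30% and 70%) meant to take away myelin and debris, and sorted as CD11c-Ly6G-CD11b+CD45low. The stroke arm of the study was not analysed here, so every value below is a sham level or a difference between 2 libraries.

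Oligodendrocytes wrap axons in myelin, a stack of membrane held together by a few very abundant proteins, among them myelin basic protein. Part of their mRNA, that of Mbp above all, is carried out into the myelin sheath itself. Astrocytes clear glutamate and potassium from the extracellular space and send end-feet rich in water channels to blood vessels. Microglia engulf myelin debris, synapses and dying cells, so a sort of microglia can hold RNA made by the microglia, RNA they have taken up, free RNA in the suspension, or RNA of other cells that passed the gate. The 2 libraries include neither unsorted tissue nor a cell-free control, and these sources cannot be told apart here. In bulk RNA, fewer cells of a type and less RNA per cell cannot be told apart either.

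The 9 genes ranged widely in abundance. Slc1a3, Cnp and Mbp each had at least 1181 counts in both libraries, whereas Mog, Gfap, Slc1a2 and Aqp4 had between 9 and 56 counts. Mobp had 45 (library 1) and 132 counts (library 2), and Clu had 97 and 1565. Levels are given as CPM, the counts of a gene per 1000000 counts of its library. Library 1 held 23381026 counts and library 2 held 41142609, so that a count of 0 allows up to 0.128 and 0.0729 CPM. All 9 genes were above these limits in both libraries. A gene was called counted when it had at least 10 counts in each library, which 8 of the 9 genes did. The exception was Aqp4, with 9 counts in library 1. Intervals below are exact 95% intervals for counting error only, since amplified reads are not independent molecules, and they leave out the spread between mice.

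**Figure D1:**
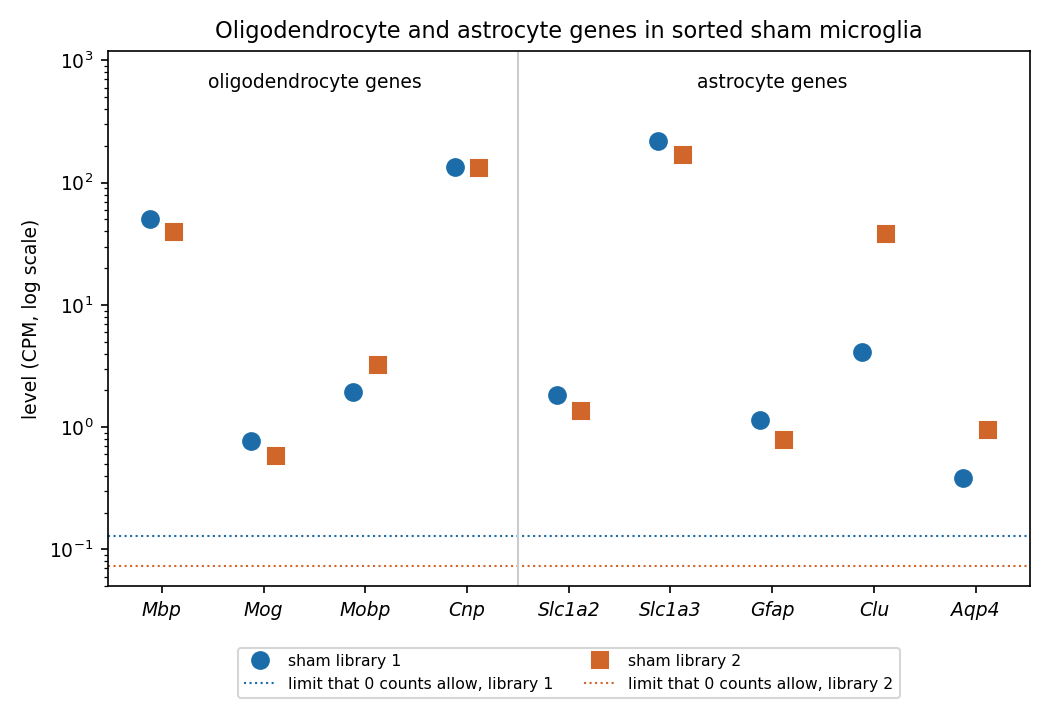
Level of each of the 9 genes in CPM (log scale) in sham library 1 (circles) and sham library 2 (squares), with dotted lines at the CPM that a count of 0 allows. Slc1a3, Cnp and Mbp lie between 39.3 and 219 CPM in both libraries, and Clu is the gene whose points lie farthest apart, at 4.15 and 38.0 CPM.

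Levels of different genes were compared per kilobase of exon in GENCODE M21, which may not be the annotation the counts were made with. On this scale Cnp was the highest of the 9 genes at 36.5 ± 0.715 CPM per kilobase (SD, n = 2 libraries), followed by Slc1a3 at 22.8 ± 4.14, Clu at 6.14 ± 6.97 and Mbp at 5.30 ± 0.936 CPM per kilobase. The means of the other 5 genes were over 10-fold lower. Mog had 0.397 ± 0.0774, Mobp 0.375 ± 0.133, Gfap 0.229 ± 0.0632, Slc1a2 0.122 ± 0.0257 and Aqp4 0.107 ± 0.0639 CPM per kilobase (SD, n = 2). The values of the 2 libraries overlapped between Clu and Mbp, between Mog and Mobp, and between Slc1a2 and Aqp4, and these neighbours in the order therefore did not differ beyond their spread. In library 2, Cnp exceeded 89.6% of the counted genes in CPM per kilobase, Slc1a3 82.9%, Mbp 58.4% and Slc1a2 2.83%. In library 1 the shares were 85.6% for Slc1a3, 57.5% for Mbp and 2.38% for Slc1a2. By these values Cnp, Slc1a3 and Mbp were not traces, and the name fits Mog, Mobp, Gfap, Slc1a2 and Aqp4, though no fixed cut was used. Clu exceeded 25.5% of the counted genes in library 1 and 74.4% in library 2, and is placed in neither group.

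Markers of the sorted cells were abundant. The 9 microglia markers were all counted and summed to 43683 (library 1) and 37349 CPM (library 2), led by Csf1r, Tmem119 and P2ry12. Across all genes the 2 libraries differed widely. Each came from 1 mouse, so differences between mice and between library preparations cannot be told apart. The common biological coefficient of variation, estimated with edgeR, was 0.479. Of the 13445 genes counted, 31.7% differed by over 2-fold between the libraries. They were 5.74% of the counted genes in the direction of library 2 and 25.9% in the direction of library 1, or 8.46% and 20% after TMM scaling. The median log2 ratio of all counted genes, library 2 to library 1, was −0.26, and −0.03 with TMM. Of the 8 counted members, 1 was over 2-fold higher in library 2 (Clu), none was over 2-fold lower, and 7 lay within 2-fold.

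**Figure D2:**
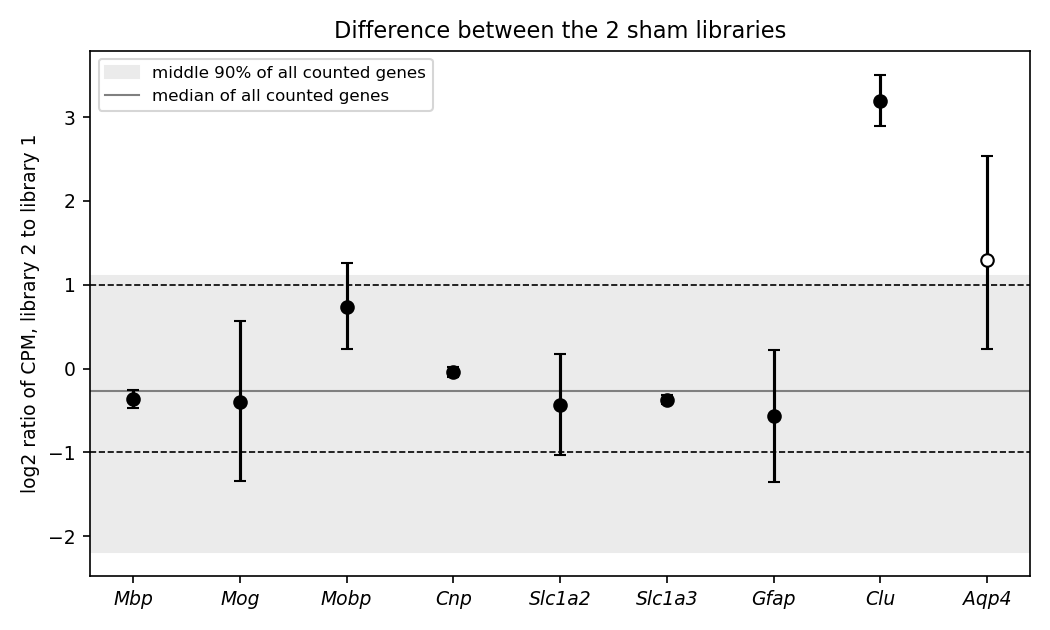
log2 ratio of CPM, library 2 to library 1, for the 9 genes, with exact 95% intervals for counting error. The grey band holds the middle 90% of the 13445 counted genes (−2.19 to 1.11), the grey line is their median (−0.26), dashed lines mark 2-fold, and the open circle (Aqp4) had under 10 counts in library 1. Clu, at 3.20, is the only filled point outside the band.

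Cnp was the highest of the 4 oligodendrocyte genes, and Mobp and Mog were the lowest per kilobase. Cnp encodes CNPase, an enzyme of non-compact myelin that is bound to the cytoskeleton. It lies on chromosome 11 of GRCm38 (100574904 to 100591729, plus strand) and had 3148 (library 1) and 5388 counts (library 2), or 135 and 131 CPM. The libraries were nearly equal, with a fold of 0.973 (interval 0.931 to 1.02). Its exons share 154 bases with Dnajc7 on the opposite strand, and whether counting used strand is not stated in the sources used here. Mobp encodes an oligodendrocyte basic protein of compact myelin. It lies on chromosome 9 (120149707 to 120181484, plus strand) and had 1.92 (library 1) and 3.21 CPM (library 2). Its exons share 79 bases with another gene on the same strand. Library 2 was the higher one, by 1.67-fold (1.18 to 2.39). This was under 2-fold, but the log2 ratio of Mobp was 1.21 after adjustment for GC content and transcript length. That adjustment also moved the median of all counted genes from −0.26 to 0.

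The 150 bases before the RefSeq start of these genes (GRCm38.p6) are shown because Cnp and Mobp mark the same cell type and differed in level. Both RefSeq starts lie downstream of the starts given above, so the last 35 bases of each window, with the match nearest the start in Mobp, are inside the gene as the deposited tables place it. Cnp is at chr11:100574789-100574938 and Mobp at chr9:120149592-120149741, both on the plus strand. Capitals mark matches on either strand to GAGGAA, the core bound by PU.1, a transcription factor of macrophages and microglia, or to ACAAAG, a core bound by SOX factors. The motifs do not overlap.
Cnp: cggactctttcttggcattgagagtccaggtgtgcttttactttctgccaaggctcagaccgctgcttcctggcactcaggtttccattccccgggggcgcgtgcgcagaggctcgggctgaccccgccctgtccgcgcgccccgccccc
Mobp: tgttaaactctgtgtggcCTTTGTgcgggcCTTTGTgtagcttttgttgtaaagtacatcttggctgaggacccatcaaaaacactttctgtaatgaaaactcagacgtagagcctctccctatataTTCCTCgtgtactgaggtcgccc
The Mobp window held 1 match to GAGGAA and 2 to ACAAAG, all as the reverse complement, and the Cnp window held none. Among the 32851 promoters of the same table, windows of this length held GAGGAA in 14.5% and ACAAAG in 9.88%. The Cnp window had a GC content of 66.0% and the Mobp window 45.3%.

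Mog encodes a glycoprotein on the outermost layer of myelin, known as a target of autoantibodies. It lies on chromosome 17 (37010743 to 37023398, minus strand). Mog had 18 (library 1) and 24 counts (library 2), or 0.770 and 0.583 CPM. The interval of its fold, 0.394 to 1.48, includes 1, so a difference was not detectable at this depth.

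Mbp encodes myelin basic protein, which holds the inner faces of the myelin membrane together. It lies on chromosome 18 (82475146 to 82585637, plus strand) and had 1181 (library 1) and 1617 counts (library 2), or 50.5 and 39.3 CPM. The fold was 0.778 (0.721 to 0.839), near the median of all counted genes, and the log2 ratio of −0.36 turned to 0.59 after adjustment for GC content and length. The locus also makes golli transcripts, which begin far upstream of the start used in myelinating cells and are known from immune cells. In GENCODE M21, 3 of the 14 coding transcripts of Mbp begin at the upstream end of the gene and 11 begin at least 79.3 kb further on. A count per gene adds all of them together, so the share of the golli form was not measured.

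The ratio of Mbp to Mobp differed between the libraries by more than counting error. There were 26.2 counts of Mbp for each count of Mobp in library 1 (19.5 to 36.2) and 12.25 in library 2 (10.3 to 14.7), intervals that did not overlap. By contrast, the ratio of Mbp to Mog was 65.6 (41.3 to 111) in library 1 and 67.4 (45.1 to 105) in library 2.

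Of 19 other oligodendrocyte genes, written down with earlier results of these data known, 3 were counted, and all 3 lay within 2-fold. The count minimum leaves out genes with few counts in library 1, so these 3 do not describe the list. Of the 19, 14 had a higher CPM in library 2, among them Sox10 and Olig2 at 0 and 1 counts. The share over all counted genes was 38.5%, but it is not a like measure, since 16 of the 19 were not counted. Among those not counted, the fold was 6.54 for Mal (1.61 to 57.2), 3.00 for Aspa (1.32 to 7.98) and 3.60 for Ermn (1.06 to 19.0). Some other intervals of uncounted genes included 1, as for Olig1 at 1.96 (0.910 to 4.67) and Opalin at 1.14 (0.163 to 12.6). Nkx6-2 lay on the other side, at 0.406 (0.102 to 1.49). Trf, which encodes the iron carrier transferrin, had 94.1 (library 1) and 73.6 CPM (library 2), and Mag, which encodes an adhesion protein at the inner face of myelin next to the axon, had 44.8 and 53.7 CPM. Per kilobase of exon, the means were 25.3 CPM for Trf and 12.1 CPM for Mag, and both genes exceeded Mbp in each library. Trf shares 2108 exon bases with an overlapping gene, which makes its counts uncertain. The third counted gene, Bcas1, had 12 and 17 counts. Tspan2, which encodes a tetraspanin, had 9 and 73 counts and so was not counted. Transcription factor genes of the lineage were uneven and low. Sox10 and Olig2 had 0 counts in library 1 and 1 each in library 2, and Myrf had 1 and 0. Olig1 had 9 and 31 counts, beside 18 and 24 for Mog, and Nkx6-2 had 7 and 5. Ugt8a, which encodes the enzyme that makes the galactolipid of myelin, had 0 (library 1) and 32 counts (library 2).

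Genes that mark precursor cells of the lineage had even less signal. None of 9 genes of oligodendrocyte precursors was counted. Pdgfra, which encodes their defining growth factor receptor, had 0 counts in both libraries, as had Lhfpl3 and Neu4. Cspg4, which encodes the NG2 proteoglycan, had 21 (library 1) and 3 counts (library 2). Ptprz1 had 4 and 28 counts and Enpp6 had 0 and 13. Their sum was 1.33 (library 1) and 1.12 CPM (library 2).

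**Figure D3:**
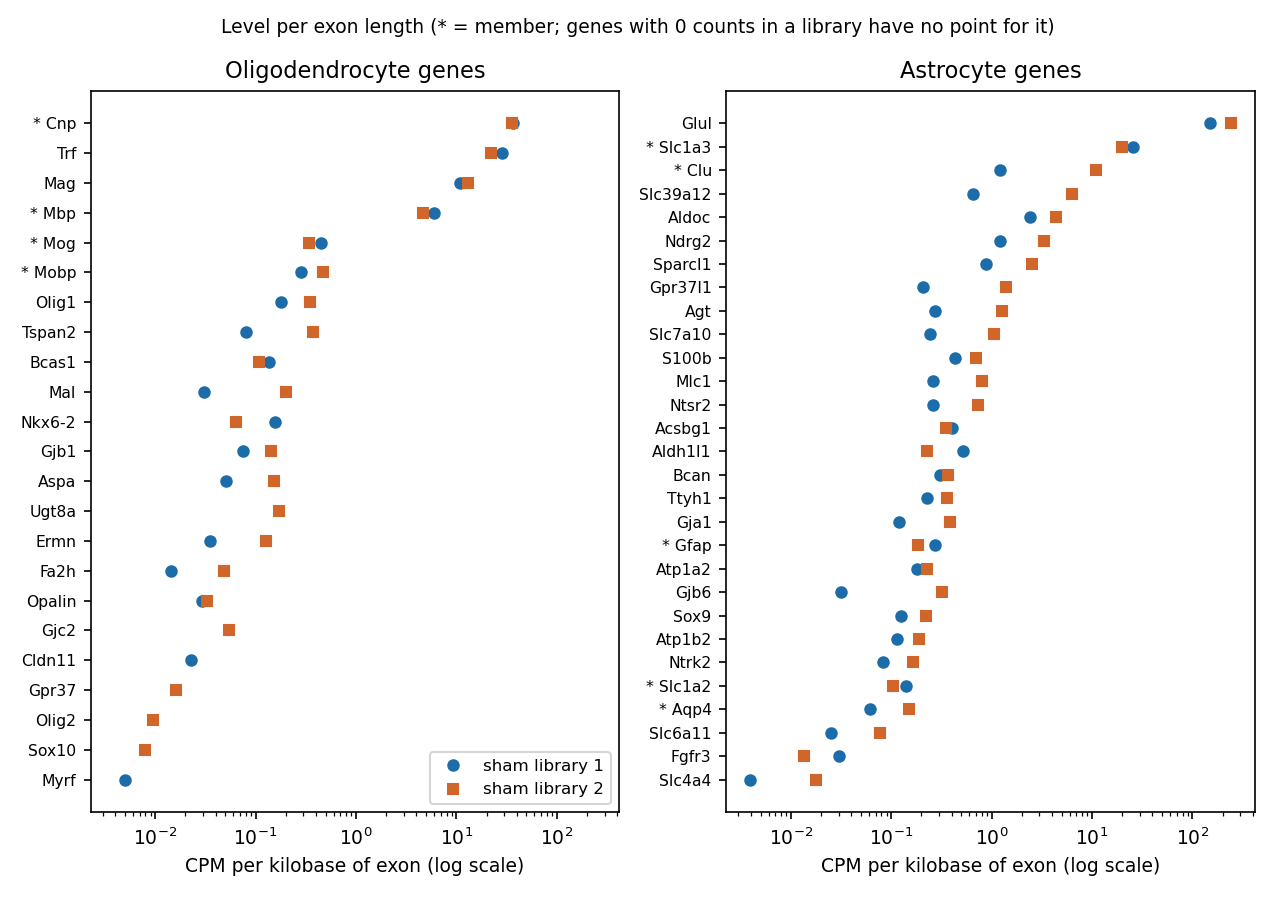
CPM per kilobase of exon (log scale) in library 1 (circles) and library 2 (squares) for 23 oligodendrocyte genes (left) and 29 astrocyte genes (right), each ordered by its mean. Asterisks mark the 9 genes followed here; Cnp and Slc1a3 lie over 10-fold above most other genes of their own cell type, and Slc1a2 and Aqp4 are among the lowest astrocyte genes.

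Slc1a3 and Slc1a2 encode the 2 main glutamate transporters of astrocytes, GLAST and GLT-1. GLT-1 is the more abundant one in the adult forebrain, and GLAST is the antigen by which astrocytes are often gated. Slc1a3 lies on chromosome 15 (8634124 to 8710764, minus strand) and had 5127 (library 1) and 6967 counts (library 2), or 219 and 169 CPM. Slc1a2 lies on chromosome 2 (102658659 to 102790784, plus strand) and had 43 and 56 counts, or 1.84 and 1.36 CPM. Slc1a3 was thus high among the counted genes per kilobase, and its family member near the bottom. Slc1a2 shares 189 exon bases with an antisense gene. There were 119 counts of Slc1a3 for each count of Slc1a2 in library 1 (88.4 to 165) and 124 in library 2 (95.7 to 165). Per kilobase of exon the ratio was 183 and 191. The intervals of the libraries overlapped almost fully. The fold between libraries was 0.772 for Slc1a3 (0.745 to 0.801) and 0.740 for Slc1a2 (0.489 to 1.13), both near the median of all genes. After adjustment for GC content and length both log2 ratios changed sign, from −0.37 to 0.24 and from −0.43 to 0.38.

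The 150 bases before their RefSeq starts (GRCm38.p6) are shown because they belong to 1 family and differed over 100-fold in level per kilobase. Slc1a3 is at chr15:8710808-8710957 on the minus strand, and Slc1a2 at chr2:102706288-102706437 on the plus strand, which is the start of later transcripts and not the first one of the gene. Both are in lower case throughout, because neither held GAGGAA or ACAAAG on either strand.
Slc1a3: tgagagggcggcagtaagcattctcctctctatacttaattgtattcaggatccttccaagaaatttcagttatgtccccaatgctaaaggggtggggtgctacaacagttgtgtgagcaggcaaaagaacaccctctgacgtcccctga
Slc1a2: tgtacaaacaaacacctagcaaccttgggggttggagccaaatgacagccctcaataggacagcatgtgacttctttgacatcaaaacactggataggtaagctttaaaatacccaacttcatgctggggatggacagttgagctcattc
The GC content was 47.3% for Slc1a3 and 44.7% for Slc1a2. Clu has no entry in the promoter table.

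Gfap, the gene of the intermediate filament of astrocytes, lies on chromosome 11 (102887336 to 102900912, minus strand). It had 27 (library 1) and 32 counts (library 2), or 1.15 and 0.778 CPM. Its fold was 0.674 (0.391 to 1.17), an interval that includes 1. There were 190 counts of Slc1a3 for each count of Gfap in library 1 (130 to 288) and 218 in library 2 (154 to 319). Aqp4, which encodes the water channel of astrocyte end-feet, lies on chromosome 18 (15389394 to 15403684 in the deposited tables, minus strand). It had 9 and 39 counts, or 0.385 and 0.948 CPM. Its fold of 2.46 had an interval from 1.17 to 5.78, and it was left out of the count of members past 2-fold because of its 9 counts in library 1. The ratio of Slc1a3 to Aqp4 was 570 (300 to 1247) in library 1 and 179 (131 to 251) in library 2, with no overlap.

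Clu was the member that set the 2 libraries apart. It encodes clusterin, a secreted chaperone and lipid carrier made by astrocytes and also by the epithelium of the choroid plexus, and lies on chromosome 14 (65968483 to 65981547, plus strand). Clu had 97 (library 1) and 1565 counts (library 2), or 4.15 and 38.0 CPM. It was 9.17-fold higher in library 2 (7.47 to 11.4), above 99.5% of the counted genes in log2 ratio and above 99.4% of those of similar mean level (1 of 10 bins). Within the 5 astrocyte genes its share of counts was 1.83% in library 1 and 18.1% in library 2. The mean of Clu, 21.1 ± 23.96 CPM (SD, n = 2), describes neither library.

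Genes of the choroid plexus were also higher in library 2. Their sum over 10 genes was 26.0 (library 1) and 381 CPM (library 2), and all 10 had a higher CPM there. Of the 6 that were counted, 5 were over 2-fold higher. Of all counted genes, 38.5% had a higher CPM in library 2 and 5.74% were over 2-fold higher. These shares leave out genes under the count minimum, as 4 of the 10 were. Ttr, which encodes transthyretin and dominates the RNA of this epithelium, had 21.9 and 356 CPM. Folr1 had 5 and 229 counts, and Clic6 had 15 and 202. The ratio of Clu to Ttr was 0.189 in library 1 (0.151 to 0.235) and 0.107 in library 2 (0.101 to 0.113). Of 8 ependymal genes, 1 was counted (Cfap126, 43 and 98 counts), while Ccdc153 had 1 and 65 counts and Tmem212 had 6 and 59. The part of these cells in the level of Clu was not tested.

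**Figure D4:**
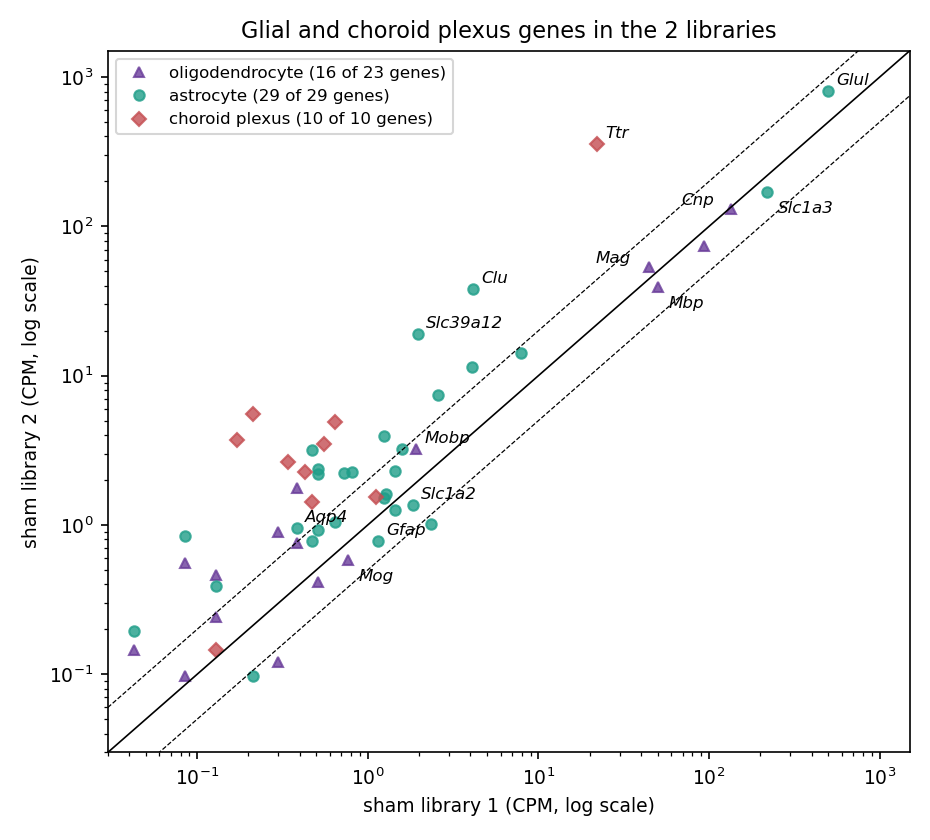
CPM in library 1 (x axis) against library 2 (y axis), both on log scales, for oligodendrocyte, astrocyte and choroid plexus genes with a count in both libraries (16 of 23, 29 of 29 and 10 of 10). The solid line marks equal levels and the dashed lines 2-fold; Cnp, Mbp, Mag and Slc1a3 lie between the dashed lines, and Clu, Slc39a12 and Ttr lie above them.

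Other astrocyte genes lay mostly on the side of library 2. Of 24 such genes, 20 were counted, and 10 of these were over 2-fold higher in library 2, 1 was lower and 9 lay within 2-fold. Of all counted genes, 5.74% were over 2-fold higher and 25.9% lower. The median log2 ratio of the 20 was 0.94, against −0.26 for all counted genes and −0.40 for the 4 counted astrocyte members. Slc39a12, which encodes a zinc transporter, went from 1.97 CPM in library 1 to 18.9 CPM in library 2. Its fold of 9.60 (7.13 to 13.2) was close to that of Clu. The receptor genes Gpr37l1 (0.470 and 3.16 CPM), Ntsr2 (0.813 and 2.26 CPM) and Ntrk2 (1.58 and 3.21 CPM) were over 2-fold higher in library 2. So were Agt, the angiotensinogen gene, with 12 and 98 counts, Slc7a10 with 12 and 91, Mlc1 with 17 and 92, Ndrg2 with 96 and 470, and Sparcl1 with 60 and 305. After the GC and length adjustment 16 of the 20 were over 2-fold higher and none was lower, and the medians were 1.54 for these genes and 0.31 for the 4 members. Of all genes so adjusted, 9.70% were over 2-fold higher and 12.7% lower. Their median moved from −0.26 to 0, so part of the rise in both medians is this shift. Gja1, which encodes the main gap junction protein of astrocytes, had 1.24 and 3.96 CPM. Aldh1l1, a folate enzyme gene widely used to mark astrocytes, was the 1 counted gene over 2-fold lower in library 2, at 2.35 (library 1) and 1.02 CPM (library 2). Its log2 ratio was −1.20, and −0.37 after the adjustment, which ends the call. Acsbg1 (34 and 52 counts) and Fgfr3 (5 and 4) also had a lower CPM in library 2.

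Slc1a3 did not keep its ratio to Gja1. There were 177 counts of Slc1a3 for each count of Gja1 in library 1 (123 to 264) and 42.7 in library 2 (36.6 to 50.2). For Aldh1l1 the ratio was 93.2 (71.5 to 124) and 166 (123 to 230), intervals that overlapped slightly. The point values of the 2 ratios moved in opposite directions. Glul, the gene of glutamine synthetase, was the highest astrocyte gene, with 495 (library 1) and 802 CPM (library 2). Its exons share 116 bases with a gene on the opposite strand and 93 with another on the same strand. Aldoc had 7.87 and 14.2 CPM. Without Glul the remaining genes summed to 32.2 (library 1) and 83.3 CPM (library 2), below Slc1a3 alone in each.

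Markers of other cells gave a scale for these levels. Neuron genes summed to 9.28 (library 1) and 7.97 CPM (library 2) over 12 genes, with at most 133 counts for any of them in a library. Camk2a had 82 and 35 counts, Snap25 33 and 133, and Syp 35 and 27. Endothelial genes summed to 96.6 and 89.0 CPM, most of it from the glucose transporter gene Slc2a1 (77.6 and 72.2 CPM) and from Pecam1 (16.1 and 14.4 CPM). Flt1 had 33 and 27 counts, the defining gene Cldn5 had 1 in each, and Tek had 0. Genes of pericytes and smooth muscle summed to 1.80 and 9.04 CPM, of which Acta2 made 0.898 and 7.68 CPM. Vtn had 2 and 32 counts, Pdgfrb 9 and 18, and Myh11 0 in both. Neutrophil genes, whose defining antigen Ly6G the gate excluded, were led by Ngp, S100a8 and S100a9 and summed to 4592 (library 1) and 62024 CPM (library 2), which lowers the CPM of every other gene in library 2. Totals without these 12 genes moved the median log2 ratio of all counted genes only from −0.26 to −0.18. Clu stayed the only counted member past 2-fold, which a shift of this size could not have changed.

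Receptors and bridging proteins by which microglia take up debris were expressed. Of 15 such genes, 13 were counted and summed to 5492 (library 1) and 3455 CPM (library 2). The highest were Trem2 (1391 and 1760 CPM), Lrp1 (1034 and 170 CPM) and Pros1 (711 and 609 CPM). Of the 13, 7 were over 2-fold lower in library 2 and none was higher, with a median log2 ratio of −1.08, beside 25.9% lower and a median of −0.26 over all counted genes. After the GC and length adjustment 2 of the 13 were over 2-fold lower (Itgav and Gas6), 1 was higher (Trem2), and the median was −0.12. Of all genes so adjusted, 12.7% were over 2-fold lower and 9.70% higher, with a median of 0. The oligodendrocyte members together had 188 and 174 CPM and the astrocyte members 227 and 210 CPM.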

How the data were processed

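RNA of sorted microglia from 2 mice, named sham in their titles and "none" under treatment, was measured by RNA-seq, with cDNA made by the SMART-Seq HT Kit and libraries by Nextera XT. The authors checked reads with FastQC, used HISAT2 for mapping to GRCm38, and obtained a number of reads for each Ensembl gene from HTSeq. These deposited counts had not been normalized. Versions, annotation release and strand setting are not given in the sources used here. Symbols were matched for 53620 of 53801 identifiers. Starts are given from 1.

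CPM was each count divided by the library total, times 1000000. Levels per kilobase used the exon union of GENCODE M21, whose coordinates differ from the deposited ones for Aqp4, so its release may not be the one counted and the lengths may differ. Folds between libraries have exact conditional binomial 95% intervals. No p-value was computed, because the 2 libraries form 1 group, and nothing was tested against another condition. Depth, 23381026 and 41142609 counts, sets the precision of low counts. The adjustment for GC content and length subtracted the median of genes in the same of 10 bins of each, or of GC alone where fewer than 20 genes shared both. Scaling and dispersion used edgeR 4.0.16 and DESeq2 1.42.0 in R 4.3.3, and the rest Python 3.11.15, numpy 2.4.6, scipy 1.17.1, pandas 2.3.3 and matplotlib 3.10.9. The intervals of the folds, the 2-fold calls, the GC and length adjustment and the dispersion estimate were tested on simulated counts. A few marker genes are not reported here and entered no list, count or sum.

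The 9 members and 11 lists of other genes were chosen with earlier results of these data known. Beside the members, the text names the 3 highest genes of each list. It also names genes of the glial lists past 2-fold and genes at 0 in both libraries. A few lineage-defining genes, a few others of the glial lists and ratios between pairs of genes were chosen after their values were seen. Alternatives were other scalings, count minimums and fold thresholds, the GC and length adjustment, and leaving out the most abundant member or 1 library.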

Additional observations from a re-analysis of the deposited data

How the results depend on the processing

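No paired analysis was possible because only 1 group was present. With 2 libraries, leaving out one always keeps a mean within 1 SD, so the resulting ranges, 174 to 188 CPM for the summed oligodendrocyte members and 210 to 227 CPM for the summed astrocyte members, say nothing about stability. The 9 member levels moved by less than 1 SD with TMM, DESeq2 size factors or totals without mitochondrially encoded genes.

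Of the 9 members, 8 were counted, and 3 were with a minimum of 100 counts. The number of counted members past 2-fold was 1 and became 2 (Clu and Mobp) with DESeq2 size factors, a fold threshold of 1.5, or the GC and length adjustment. It was 0 with a minimum of 100 counts, where Clu dropped out with 97, and 2 (Clu and Aqp4) with a minimum of 3, both chosen after seeing the data, as were the adjusted counts of the other lists. Among the 13445 counted genes, 4257 were past 2-fold, 6837 past 1.5-fold and 2115 past 3-fold. With a minimum of 100 counts, 2713 of 9588 genes were past 2-fold. The share of all genes over 2-fold higher or lower in library 2 was 9.70% and 12.7% after the GC and length adjustment. The coefficient of variation was 0.479, and 0.550 without the filter on low counts.

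The log2 ratio of the summed oligodendrocyte members, −0.11, was 0.12 with TMM, 0.16 with DESeq2 size factors, 0.12 when scaled to the summed microglia markers and −0.30 without Cnp. For the astrocyte members, −0.11 became 0.12, 0.17 and 0.12 under these scalings, 2.45 without Slc1a3 and −0.37 without Clu, the last chosen after seeing the data. The means without Cnp and without Slc1a3 were 48.1 and 24.3 CPM. The direction of both sums between the libraries therefore depends on the scaling.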
